A study of Mus musculus with 2 samples.

Results

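Costimulatory and activation surface markers are the proteins by which a B cell that has met antigen shows its state to T cells. The 9 genes described here, of 27669 gene names on the array, are Cd86, Cd80, Icosl and Cd274 of the B7 ligand family, Cd40, Fas and Tnfrsf9 of the TNF receptor family, and the activation markers Cd69 and Cd83. Probes were taken by the gene name in the scanner files or its current synonym, which gave 14 of the 41174 gene probes on the array, on 32 of 43379 gene spots. All 14 carried the current symbol, so no synonym was needed.

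CD80 and CD86 bind CD28 and CTLA-4 on T cells, ICOSL binds ICOS, and PD-L1, the product of Cd274, binds the inhibitory receptor PD-1. CD40 receives CD40 ligand from helper T cells and signals through TRAF adaptors to NF-kB, Fas triggers caspases when it binds its ligand, and 4-1BB, encoded by Tnfrsf9, is induced on activated lymphocytes. CD69 appears within hours of receptor stimulation and holds cells in tissue by removing the sphingosine phosphate receptor S1PR1 from the surface, and CD83 keeps class II molecules and CD86 at the surface by opposing a ubiquitin ligase, MARCH1.

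The study set autoreactive immature B cells against non-autoreactive ones. Autoreactive cells came from BALB.B mice of genotype 3-83Igi, Rag1-/-, H-2b, and non-autoreactive cells from BALB/c mice of genotype 3-83Igi, H-2d. All mice carried 3-83Igi, a rearranged receptor inserted at the immunoglobulin loci, whose ligand includes an H-2b class I molecule. Both were pooled bone marrow cells of untreated mice, gated as positive for B220 and negative for CD43, IgD and CD23, and the labels give neither the number nor the age of the animals. There were 2 arrays, each with autoreactive cells in Cy5 against non-autoreactive cells in Cy3. Strain, haplotype, the Rag1 disruption and dye all followed the groups, so they cannot be told apart from autoreactivity. The labels number the autoreactive pools only, and p-values measure the spread between these 2 arrays, which may be technical.

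Depending on array and channel, 54.1% to 57.4% of gene spots exceeded background clearly, and none was saturated. The number of arrays also limits precision. H2-Ea, a class II gene that H-2b cells do not transcribe, had log2 ratios of -5.22 on array 1 and -5.26 on array 2, which places the H-2b cells in Cy5 as labelled (limma adjusted p = 0.000196). All 10 markers on the B lineage list, among them Cd79a and Pax5, were well above background in both cell populations. So were all 12 myeloid markers, so detection does not show purity. On arrays 1 and 2 the myeloid signals summed to 502036 and 454023 in autoreactive cells, and to 404526 and 545662 in non-autoreactive cells. The B lineage signals summed to 583986 and 619164, and to 498666 and 506573. Of the B lineage list, Blnk (1.08) and Ighm (1.00) were higher and Cd74 (-1.37), Pax5 (-1.05) and Ptprc (-0.85) lower in autoreactive cells at a limma adjusted p under 0.05. Other tested probes of Pax5 (-0.40) and Ptprc (-0.59 and -0.48) did not pass, while another of Ptprc (-0.77) and 1 of Ighm (1.35) did. Of all tested genes, 3.48% were higher and 2.61% lower. Over the 22623 probes tested, Pearson's r between the arrays was 0.695, a description across probes that share these libraries.

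Cd86 and Cd274 were lower in autoreactive cells, 2.80-fold and 3.28-fold by their brightest probes, and both probes of Cd86 passed the test. Icosl and Fas were below 0 on both arrays without passing it. Cd40, Cd69 and Cd83 lay on opposite sides of 0 on the 2 arrays. Cd80 and Tnfrsf9 were too dim to measure. Levels below are normalised log2 signals of a channel, ratios are log2 of autoreactive over non-autoreactive cells, and each error is the SE of limma over n = 2 arrays. Of the 8 member probes tested, 3 were lower and 0 higher at a limma adjusted p under 0.05, where 2.17% of all tested probes were lower, 3.15% higher and 5.31% either. By brightest probe, 2 of the 7 tested member genes were called, where 6.09% of all tested genes were, and 4 had an unadjusted p under 0.05, where 24.3% of all tested genes did. All 8 tested probes were well above background in both channels on both arrays, so that none entered through a single population. In bulk samples, fewer cells of a type and less RNA per cell cannot be told apart.

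**Figure D1:**
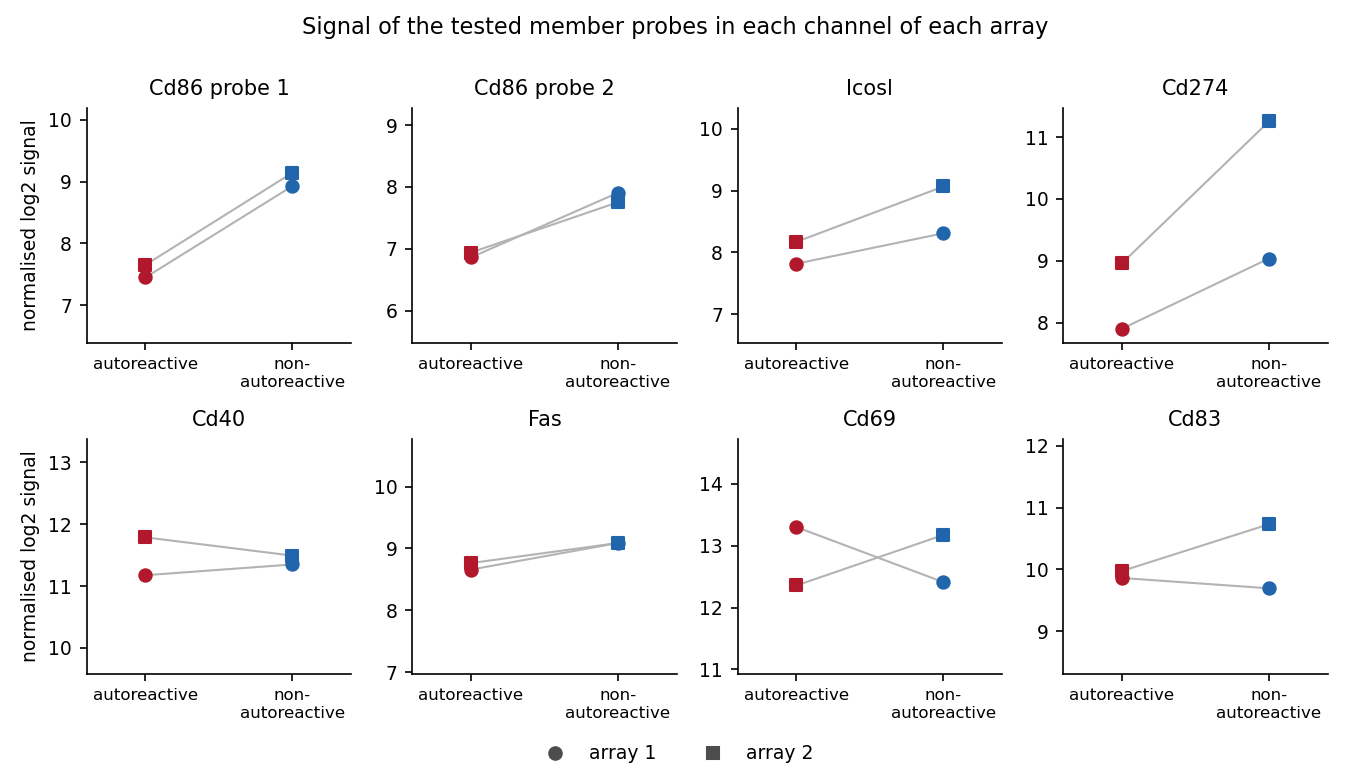
Normalised log2 signal (vertical axis) of each tested member probe in autoreactive and non-autoreactive cells, with the channels of an array joined by a line. Both Cd86 probes, Icosl, Cd274 and Fas were lower in autoreactive cells on both arrays, and the lines of Cd69, Cd83 and Cd40 slope in opposite directions. Each panel spans the same number of log2 units.

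Cd86, the CD28 ligand that activated B cells display, was the member with the smallest p. Its brighter probe (A_52_P145861) had log2 signals of 7.45 and 7.65 in autoreactive cells, against 8.93 and 9.14 in non-autoreactive cells. The populations did not overlap, and the ratios of -1.48 and -1.49 differed by less between arrays than those of 96.6% of tested probes. The mean ratio was -1.48 ± 0.12 (limma adjusted p = 0.00400). The other Cd86 probe (A_51_P174723) had log2 signals of 6.86 and 6.94 in autoreactive cells, against 7.91 and 7.75 in non-autoreactive cells. It was also lower without overlap, with ratios of -1.05 and -0.81 and a mean of -0.93 ± 0.13 (limma adjusted p = 0.0170). Both probes lie on chromosome 16, at 36312799-36312858 and 36323674-36323733 as the scanner files give them, without a genome build or an exon assignment. The dimmer probe stood closer to the lowest signals well above background in Cy5 (6.32 on array 1 and 6.21 on array 2). With the scanner program's own deposited ratios the probes averaged -1.89 and -1.59. Neither call was kept with a trended and robust variance (adjusted p = 0.132 and 0.210), and that of the dimmer probe ended with separate channels (adjusted p = 0.0633).

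Cd80, the other B7 ligand of CD28, could not be measured. Its probe A_51_P418295 was well above background in both channels on array 1 and in neither on array 2. On array 1 its log2 signals were 7.03 in autoreactive cells and 6.96 in non-autoreactive cells. Its second probe was not well above background on any array. No ratio is given for it, and a difference in Cd80 was not detectable at these signals.

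Icosl, which encodes the ligand of ICOS, was below 0 on both arrays and missed the threshold. Its brighter probe had log2 signals of 7.82 and 8.17 in autoreactive cells, against 8.31 and 9.07 in non-autoreactive cells. The populations did not overlap, with ratios of -0.49 and -0.90. The mean was -0.69 ± 0.15 (limma adjusted p = 0.0539, 95% interval -1.05 to -0.34). Icosl was called as lower in 5 of 10 other settings with a test, with adjusted p between 0.00550 and 0.376. Its second probe was not well above background in either population.

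Cd274, which encodes the PD-1 ligand, had the lowest mean ratio of the members. Its probe on chromosome 19 had log2 signals of 7.90 and 8.96 in autoreactive cells, against 9.04 and 11.25 in non-autoreactive cells. The populations did not overlap, yet the array 2 signals were higher than those of array 1 in both. The ratios were -1.14 on array 1 and -2.29 on array 2, with a mean of -1.72 ± 0.26 (limma adjusted p = 0.0227). Their difference of 1.16 was reached by 0.809% of tested probes. The call ended with no filter on dim probes (adjusted p = 0.0740), separate channels (0.396) and a trended and robust variance (0.127).

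Markers of plasmacytoid dendritic cells, which can carry B220 and could enter this gate, were below 0 like Cd274, though not all with its gap between arrays. All 8 were below 0 on both arrays, where 35.4% of all tested genes were, with a median ratio of -0.85 on array 1 and -2.49 on array 2. The test called 2 as lower, where it called 2.61% of all tested genes so. These were the surface antigen gene Ly6d (-1.48 and -1.16, mean -1.32) and Cox6a2 (-1.04 and -1.40, mean -1.22), which encodes a respiratory chain subunit. Siglech, a receptor of these cells, had ratios of -0.87 and -2.77, and the chemokine receptor gene Ccr9 had -0.87 and -2.69, neither of them called (limma adjusted p = 0.0617 and 0.0593). Of the 8 markers, 7 were well above background on both arrays in autoreactive cells and 8 in non-autoreactive cells. So 1 passed the filter through non-autoreactive cells only, which bears on the median and the counts. Their summed signal was 31725 and 30040.4 in autoreactive cells, against 77569 and 79802 in non-autoreactive cells. Ly6d was the brightest of them, with a mean log2 signal of 14.42 against 15.74, so the sum mostly follows that gene. Siglech stood at 7.64 against 9.46. The part of these cells in the ratio of Cd274 was not tested.

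**Figure D2:**
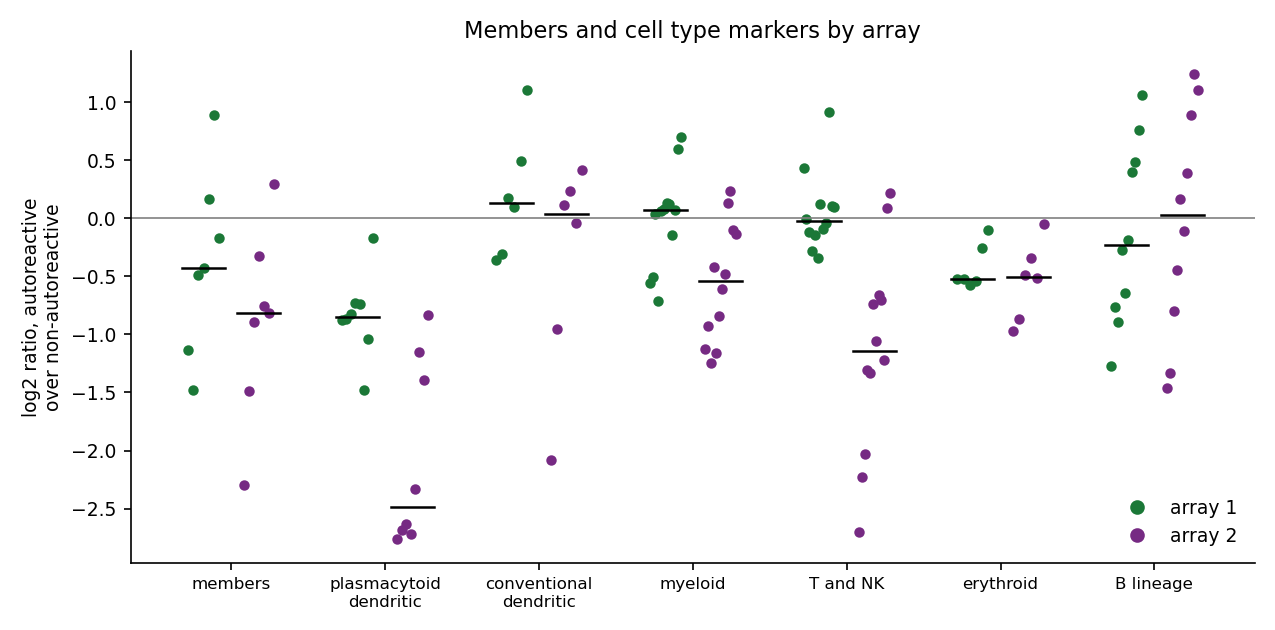
Log2 ratio (vertical axis) of the brightest tested probe of each member gene and of each marker gene of other cell types, by array, with the median of each list as a bar. Plasmacytoid dendritic markers had medians of -0.85 on array 1 and -2.49 on array 2, and members -0.43 and -0.82.

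The medians of the other marker lists were nearer 0. Myeloid markers had medians of 0.07 on array 1 and -0.54 on array 2, with 1 of 12 lower, where 2.61% of all tested genes were. It was Ltf, which encodes lactoferrin (-0.84 ± 0.17, limma adjusted p = 0.0460), though its other tested probe, at -0.75, was not called. Adgre1, a macrophage surface marker, stood at -0.72 and was not called. T and natural killer cell markers had -0.03 and -1.14, with 0 of 12 called by limma and 4 at an unadjusted p under 0.05, where 24.3% of all tested genes were. Of these 12, 9 were well above background on both arrays in autoreactive cells and 12 in non-autoreactive cells, so 3 passed the filter through non-autoreactive cells on at least 1 array, which bears on the median and the counts. The granzyme gene Gzma had 0.43 and -2.71, and the natural killer receptor gene Ncr1 -0.01 and -2.23. Conventional dendritic markers had 0.13 and 0.04 over 6 tested genes, with 0 called and 3 at an unadjusted p under 0.05, beside the same 24.3%. Clec9a, Cd209a and Fscn1 were not well above background. Of the 6, 5 were well above background on both arrays in autoreactive cells and 6 in non-autoreactive cells. So 1 passed the filter on an array through non-autoreactive cells, which bears on the median and the counts. Itgax, which encodes CD11c, had -0.36 and -2.08, and the chemokine receptor gene Ccr7 averaged 0.76 ± 0.18, neither of them called. Erythroid markers had -0.52 and -0.50, and all 6 were below 0 on both arrays, where 35.4% of all tested genes were. The test called 2 of the 6 as lower, against 2.61% of all tested genes, the anion exchanger gene Slc4a1 (-0.75) and Hemgn (-0.69). The other tested Hemgn probe, at -0.41, was not called. Their part in the members' ratios was not tested either.

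**Figure D3:**
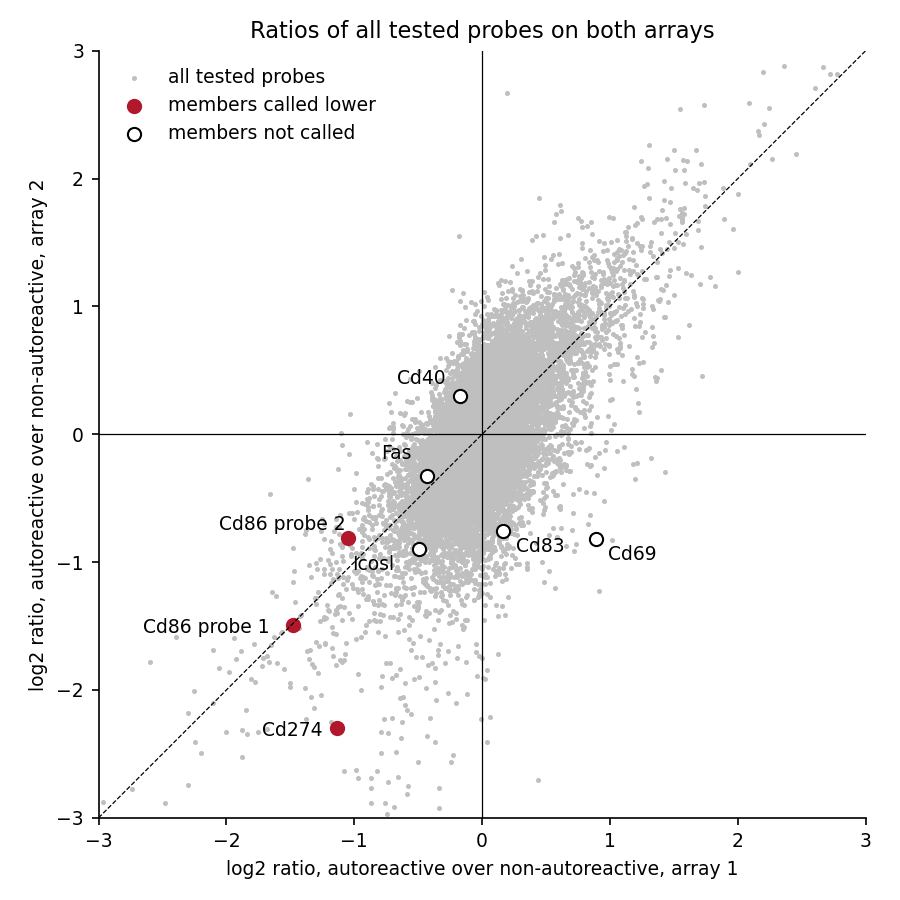
Log2 ratio of every tested probe (grey) on array 1 (horizontal axis) and array 2 (vertical axis), with the 8 member probes labelled and a dashed line of equal ratios. Cd86 probe 1 (A_52_P145861) sits on the line at -1.48 and -1.49, Cd274 lies below it, and Cd69 stands at 0.89 and -0.82. 24 tested probes lie outside the axes.

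Cd40, the receptor for T cell help, did not differ in a common direction. Its probe is printed on 10 spots of each array, and its log2 signals were 11.18 and 11.79 in autoreactive cells, against 11.35 and 11.49 in non-autoreactive cells. The populations overlapped, with ratios of -0.17 on array 1 and 0.30 on array 2. The mean was 0.06 ± 0.15 (limma adjusted p = 0.843, 95% interval -0.32 to 0.44). On array 1 the spots ranged from -0.32 to -0.11, and on array 2 from 0.17 to 0.41. The spots of the 2 arrays did not overlap, so the arrays differed by more than the spread among spots (SD 0.059 and 0.083).

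Fas, the death receptor gene, was below 0 on both arrays and was not called. Its 10-spot probe had log2 signals of 8.66 and 8.76 in autoreactive cells, against 9.09 and 9.09 in non-autoreactive cells. The populations did not overlap. The ratios were -0.43 over 10 spots and -0.33 over the 9 spots kept on array 2, and the mean was -0.38 ± 0.12 (limma adjusted p = 0.146, 95% interval -0.68 to -0.08). All kept spots were below 0, from -0.51 to -0.36 on array 1 and from -0.39 to -0.21 on array 2. The second Fas probe, taken from a lung cDNA, was not well above background in either population. Among the 152 tested probes with 10 spots, the median SD among spots was 0.058 on array 1 and 0.055 on array 2, and the median difference between arrays was 0.18.

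**Figure D4:**
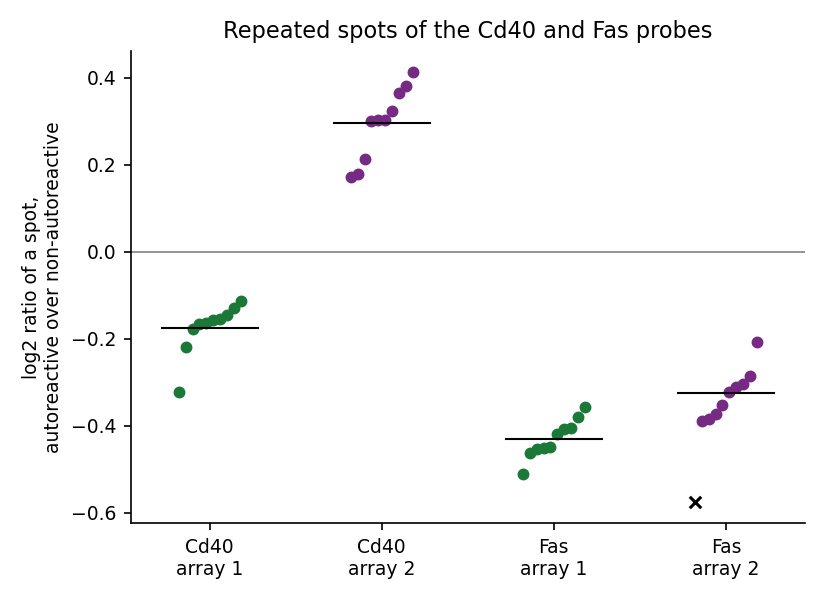
Log2 ratio (vertical axis) of each of the 10 spots of the Cd40 and Fas probes on each array, with the mean as a bar and 1 outlier spot of Fas on array 2, left out of the mean, as a cross. The Cd40 spots of array 1 all lie below 0 and those of array 2 all above it, while all Fas spots lie below 0.

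Tnfrsf9, the gene of 4-1BB, was at background. Neither of its probes was well above background in either population on any array, so no ratio is given. In autoreactive cells the log2 signals of both probes lay between 6.05 and 6.32, and in non-autoreactive cells between 6.22 and 6.50.

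Cd69 was the member on which the arrays disagreed most. Its log2 signals were 13.30 and 12.36 in autoreactive cells, against 12.41 and 13.18 in non-autoreactive cells. It was high in autoreactive cells on array 1 and in non-autoreactive cells on array 2, so the populations overlapped. The ratios of 0.89 and -0.82 averaged 0.04 ± 0.37 (limma adjusted p = 0.963, 95% interval -0.86 to 0.93). Between arrays, 49 of the 22623 tested probes, that of Cd69 included, differed at least as much.

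Cd83 showed the same order of arrays as Cd69. Its log2 signals were 9.86 and 9.97 in autoreactive cells, against 9.69 and 10.73 in non-autoreactive cells. The autoreactive signals lay within the range of the non-autoreactive ones, whose array 2 value was the highest. The ratios of 0.17 and -0.76 averaged -0.29 ± 0.22 (limma adjusted p = 0.463, 95% interval -0.84 to 0.25), and 1.84% of tested probes differed as much between arrays.

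Over the 8 tested member probes, 5 had lower signals without overlap, those of Cd86, Icosl, Cd274 and Fas, where 21.3% of all tested probes did. The median ratio of the 7 tested member genes was -0.43 on array 1 and -0.82 on array 2, beside 0.01 and -0.01 over all 15113 tested genes. By the smallest distance over the ratios of both arrays, the genes most like Cd86 were Cd5, at -1.49 and -1.50, Rhbdf2, at -1.43 and -1.51, and Gga2, at -1.42 on both, a likeness over 2 arrays only.

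Of the 4 genes that were below 0 on both arrays, 3 have a start site in the RefSeq promoter table (build GRCm38.p6): Cd274, Icosl and Fas. Cd86 has no entry. The 250 bases before each start are shown since these genes lay on the same side of 0, with matches to 3 motifs in capitals: GGG, any 5 bases and CC for NF-kB, GAAA, any 2 bases and GAAA for interferon regulatory factors, and TGANTCA for AP-1, each on both strands. The windows are chr19:29367188-29367437 for Cd274, chr10:78069118-78069367 for Icosl and chr19:34290409-34290658 for Fas, all on the plus strand.
Cd274: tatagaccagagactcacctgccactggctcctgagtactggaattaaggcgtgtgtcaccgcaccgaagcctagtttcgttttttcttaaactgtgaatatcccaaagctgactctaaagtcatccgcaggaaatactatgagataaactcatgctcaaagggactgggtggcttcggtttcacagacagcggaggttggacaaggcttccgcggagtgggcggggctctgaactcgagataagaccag
Icosl: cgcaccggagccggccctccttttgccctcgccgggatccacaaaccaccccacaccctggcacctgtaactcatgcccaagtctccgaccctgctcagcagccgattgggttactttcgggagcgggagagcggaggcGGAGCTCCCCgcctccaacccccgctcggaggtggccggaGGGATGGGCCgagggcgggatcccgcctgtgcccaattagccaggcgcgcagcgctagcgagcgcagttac
Fas: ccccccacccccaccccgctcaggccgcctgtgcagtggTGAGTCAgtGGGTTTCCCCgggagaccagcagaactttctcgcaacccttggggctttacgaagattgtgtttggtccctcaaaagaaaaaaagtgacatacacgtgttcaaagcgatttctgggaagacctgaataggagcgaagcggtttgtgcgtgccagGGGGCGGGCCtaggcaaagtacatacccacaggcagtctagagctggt
The Fas window held the AP-1 letters at -211 to -205 and the NF-kB letters at -202 to -193 and -48 to -39 from the start. The Icosl window held the NF-kB letters at -111 to -102 and -71 to -62, and no motif overlapped another. The Cd274 window held none of these letters. Of all 32851 windows of this length in the table, 45.8% held the NF-kB letters, 2.98% those for interferon regulatory factors and 6.75% those of AP-1, and a match is a description of letters only.

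The next list held partners of the members on T cells and other costimulatory genes. Of 24 genes, 16 were tested, 2 were lower and 0 higher by limma, where 2.61% of all tested genes were lower and 3.48% higher. An unadjusted p under 0.05 was reached by 7 of the 16, beside 24.3% of all tested genes. The median of the 16 was -0.11 on array 1 and -0.36 on array 2. All 16 were well above background on both arrays in non-autoreactive cells but only 12 in autoreactive cells, so 4 passed the filter on an array through the population where they were measured, and neither the counts nor the median can be read apart from that. Pdcd1, which encodes PD-1, the receptor of the Cd274 product, was lower (-1.34 ± 0.13, limma adjusted p = 0.00662), and it was 1 of those 4, well above background on 1 of 2 arrays in autoreactive cells. Tnfrsf18, the gene of the receptor GITR, was also lower (-1.23 ± 0.13, limma adjusted p = 0.00837). The TNF receptor gene Cd27 stood at -0.59 ± 0.17 and the adhesion gene Cd2 at 0.51 ± 0.14, neither of them called. Cd40lg, Tnfsf9, Icos and Ctla4, which encode the partners of CD40, 4-1BB, ICOSL and the CD80 and CD86 pair, were not well above background in either population.

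Adaptors and effectors below CD40, 4-1BB and Fas went both ways. Of 26 genes tested, 2 were higher and 1 lower, where 3.48% of all tested genes were higher and 2.61% lower. The median of the 26 was 0.03 on array 1 and -0.08 on array 2. Traf6, an adaptor of CD40 (0.79 ± 0.13, limma adjusted p = 0.0261, its other probe 0.69), and Nfkb2, a subunit of the alternative NF-kB pathway (0.80 ± 0.13, limma adjusted p = 0.0266), were higher. Traf1, an adaptor that NF-kB induces, was lower (-0.89 ± 0.16, limma adjusted p = 0.0366). Traf3, which restrains the alternative pathway, stood at -0.53 ± 0.12 and was not called.

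Other surface molecules that follow activation were also divided, with 1 of 21 higher and 2 lower, beside 3.48% and 2.61% of all tested genes. The median of the 21 was -0.01 on the first array and -0.18 on the second. Il2ra, the alpha chain of the IL-2 receptor, was higher (1.14 ± 0.13, limma adjusted p = 0.00966). Its other tested probes stood at 1.29 and 1.27, both called, and at 0.75, not called. Slamf1, a self-binding receptor of lymphocytes (-1.19 ± 0.17, limma adjusted p = 0.0182), and Sema7a, a membrane semaphorin (-1.10 ± 0.22, limma adjusted p = 0.0452), were lower. Cd24a, which encodes heat stable antigen, stood at 0.64 ± 0.15 and was not called.

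Among 7 genes tied to the turnover or action of member proteins, 1 was higher and 1 lower, beside 3.48% and 2.61% of all tested genes. The median of the 7 was 0.08 on array 1 and 0.17 on array 2. Marchf1, whose product ubiquitinates CD86 and class II molecules, was lower, with ratios of -1.27 and -0.97 (-1.12 ± 0.14, limma adjusted p = 0.0109). Marchf8, a relative of Marchf1, was higher, with ratios of 0.67 and 0.70 (0.69 ± 0.12, limma adjusted p = 0.0332). S1pr1, the receptor that CD69 removes from the surface, stood at 0.31 ± 0.15, and Cmtm4, which stabilises PD-L1 in human cells, at 0.28 ± 0.15, neither of them called.

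Ratios are relative to the loess curve of each array. Median centring over all gene spots moved the median of all tested probes to 0.54 and called 14276 probes as higher and 521 as lower, against 712 and 490 with loess, with Cd86 at -1.18 and -0.82 by its 2 probes and Cd274 at -1.27, all still called as lower. It put Cd83 at 0.25 and Fas at 0.02, on the other side of 0, and called Cd40 (0.74) and Cd69 (0.86) as higher, values to be read against that shift.

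**Figure D5:**
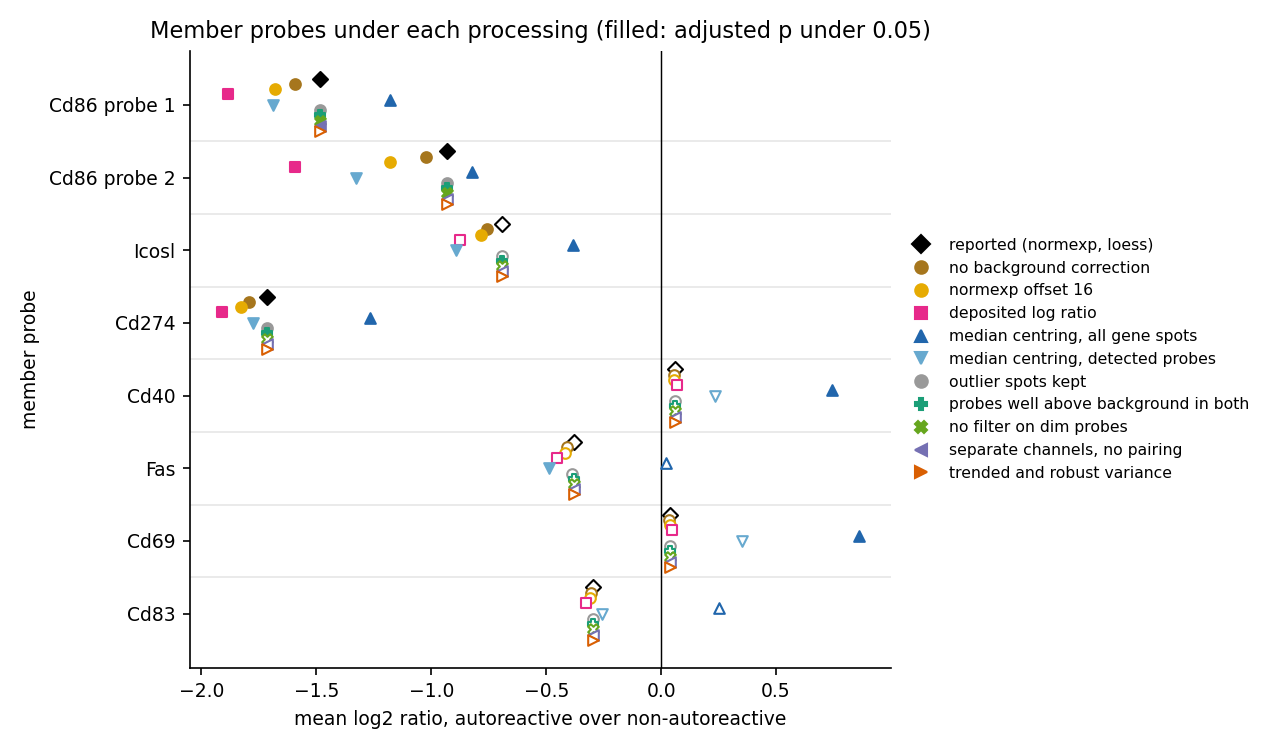
Mean log2 ratio (horizontal axis) of each tested member probe (vertical axis) as reported and under 10 other settings, filled where the adjusted p was under 0.05. Both Cd86 probes, Icosl and Cd274 stayed below 0 in every setting shown, and median centring over all gene spots moved every probe to the right of its reported value.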

How the data were processed

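RNA of both populations was linearly amplified from 0.5 ug and hybridised to 2 two-colour Agilent mouse arrays, per the labels' protocols. Per the file headers, the authors scanned with Agilent Feature Extraction 9.5.1.1, and each spot has a mean intensity and a median local background intensity in either channel. Its deposited log10 ratio, Cy5 over Cy3, follows background subtraction and dye normalization by that program. A deposited series-level file repeats these log10 values to within 5e-10.

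Background was corrected by normexp with offset 50, then each array was loess-normalized (limma 3.58.1 under R 4.3.3), giving control and outlier spots a weight of 0. After outlier spots were dropped, replicate spots were averaged per probe. A probe was tested if each array had it well above background in a channel, which 22623 of 41174 passed. The test was limma's two-sided moderated test of log2 ratios against 0 (lmFit, eBayes), adjusted over all tested probes by Benjamini-Hochberg at 0.05. With 1 residual and 5.08 prior degrees of freedom, each SE borrows heavily from other probes. Levels are channel values after loess and Aquantile scaling.

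Genes are represented by their brightest tested probe and named by means of the RefSeq genes of GRCm38.p6. Named genes are all members, up to 4 per related list and up to 2 per list of other cell types with the largest absolute ratio, and the 3 genes most like the member with the smallest p. H2-Ea, Cd79a and the called markers of lists with 5 or fewer calls were named outside that rule, after their values were seen. Members, lists and alternatives were chosen with earlier results of these data known. On simulated data for this comparison (22623 probes, 10 runs, 200 changed), limma recovered 4% of 1.5-fold, 70% of 2-fold, 99.8% of 4-fold and 100% of 8-fold changes, and 8.48% of its calls were of unchanged probes. The simulated errors were normal, independent between probes and drawn with limma's own prior degrees of freedom. The data gave 1202 calls and may hold shifts shared by many probes, so these rates describe the simulated data only. Figures were drawn with matplotlib 3.10.9.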

Additional observations from a re-analysis of the deposited data

How the results depend on the processing

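Both Cd86 probes, Icosl and Cd274 stayed below 0 in all 12 settings run, single arrays included, and Cd86 was called as lower in 9 (brighter probe) and 8 (dimmer probe) of the 10 with a test and Cd274 in 7. Of the 8 tested member probes, 3 were lower and 0 higher as reported, where 5.31% of all tested probes were called in either direction. With median centring over detected probes 5 were lower, beside 32.1% of all tested probes called. Separate channels, which drop the pairing by array (no replicate block), left 1 lower, beside 0.946% called. A trended and robust variance left 0, beside 2.1% called. Median centring over all gene spots called 2 as higher. Over all probes, 712 higher and 490 lower calls became 458 and 16 with a trended and robust variance, 127 and 87 with separate channels and 3724 and 3548 with centring on detected probes. The deposited ratios gave 427 higher, centring over all gene spots 14276 higher, and no filter on dim probes 301 lower. Why these counts moved was not tested. Against the mean of both arrays, array 2 alone turned Cd69 (-0.82), and array 1 alone turned Cd83 (0.17) and Cd40 (-0.17). A single array leaves no residual degrees of freedom, so these are values with no test. The reported ratios pair the channels of an array, and no other pairing was run, since the labels number the autoreactive pools only. Both arrays share a scan, so it could not serve as a block. Signal over background limits Cd80, Tnfrsf9 and the second probes of Icosl and Fas.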

Other observations

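Beyond 0.5 on both sides of 0, the disagreement of the arrays seen on Cd69 ran in a single direction over the tested genes. Smaller disagreements also ran the other way, as for Cd40 (-0.17 and 0.30). By brightest probe, 16 of 15113 genes were above 0.5 on array 1 and below -0.5 on array 2, and 0 were placed the other way round. The genes named here were picked after their values were seen. Besides Cd69 (0.89 and -0.82), they included the granzyme gene Gzmb (0.92 and -1.22), the immediate early receptor gene Nr4a1 (0.52 and -1.07) and the small Maf factor gene Maff (0.72 and -0.91). The NF-kB inhibitor gene Tnfaip3 (0.59 and -0.80), the BH3-only gene Bbc3 (0.83 and -0.70) and Myc (0.61 and -0.73) were among them too. Ratios on opposite sides of 0 are what chose these genes, and no explanation was tested.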
